A study of Homo sapiens with 6 samples.

Results

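The baseline transcriptome of SK-N-BE(2) cells was described from the 3 samples that carry the treatment label NC, of 6 samples in the series. The line SK-N-BE(2) was established from human neuroblastoma and is known for amplification of the MYCN oncogene. The cells were grown in MEM and F12 medium with 10% fetal bovine serum and transfected with a negative control siRNA (siNC), an RNA duplex designed to have no target. The labels give 72 h of transfection, whereas the methods of the study give a shorter time. The study used siNC as the control for siRNA against Prp19, a splicing factor, and the knockdown samples were not analysed here. All 3 samples come from 1 cell line, were handled with a transfection reagent and include no untransfected cells. The methods call the replicates biological, so the spread given below is the spread between these 3 cultures.

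Neuroblastoma arises from the sympathoadrenal lineage, the branch of the neural crest that makes sympathetic neurons and the chromaffin cells of the adrenal medulla. Cells of this lineage are kept in their identity by a group of transcription factors that includes PHOX2A, HAND2, GATA3 and ISL1, and they make noradrenaline from tyrosine with the enzymes TH, DDC and DBH. MYCN is a transcription factor of the MYC family that drives growth and ribosome synthesis, and neuroblastoma cells are also known to shift between this adrenergic state and a mesenchymal state.

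RNA was measured by sequencing, and the authors deposited FPKM values (fragments per kilobase of exon, scaled to library size) of 58302 genes in each sample. Values times exon length were whole multiples of the worth of 1 read for 97.6% of the 58039 genes found in GENCODE release 29, and for 96.0% of those with a value above 0. The depth recovered from these multiples was 21943963 reads in siNC replicate 1, 19058793 in replicate 2 and 19175200 in replicate 3. The replicates did not stand equally close to each other. siNC replicate 3 had 20.03% of its summed FPKM in genes of mitochondrial DNA, against 11.2% in replicate 1 and 10.5% in replicate 2, and its glycolysis genes were low, as described below. Across the 14513 genes whose mean reached 1 FPKM, log2 levels of replicates 1 and 2 correlated with r = 0.948, replicates 1 and 3 with r = 0.925, and replicates 2 and 3 with r = 0.893, where genes of a library are not independent of each other. Low members of the lists and pairs of related genes that the naming rule below does not cover were picked after their values were seen.

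The 14513 genes at 1 FPKM or more made up 24.9% of the 58302 listed. Among protein coding genes, the share was 11296 of 19817, or 57.0%, and 4532 genes (22.9%) reached 10 FPKM. In all 3 samples, 2664 protein coding genes (13.4%) were listed at 0. The levels were concentrated in few genes: 308 genes reached 100 FPKM and 21 reached 1000 FPKM. The 10 most abundant genes of a sample held 12.6 ± 3.42% of its summed FPKM (SD, n = 3), with 11.3%, 10.1% and 16.5% in replicates 1, 2 and 3. The 100 most abundant held 32.3 ± 2.13% (SD, n = 3).

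**Figure D1:**
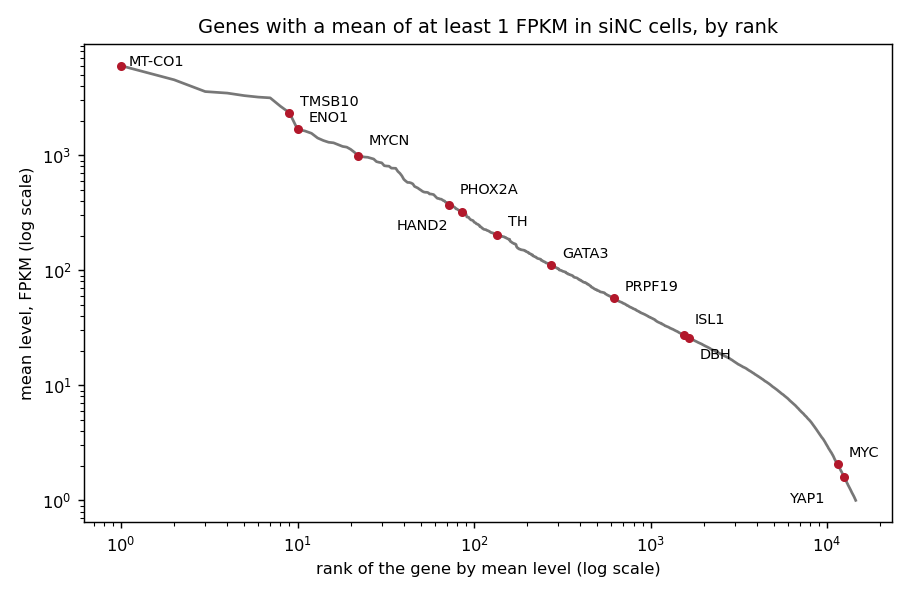
Mean FPKM of each gene over the 3 siNC samples (vertical axis, log scale) against its rank (horizontal axis, log scale) for the 14513 genes that reached 1 FPKM, where points mark genes named in the text. MYCN stands at rank 22 near the top of the curve, while MYC and YAP1 lie at its lower end.

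Of the 25 genes with the highest mean, 14 were genes of mitochondrial DNA, which encode subunits of the respiratory chain, ribosomal RNAs and transfer RNAs of the mitochondrion. MT-CO1, a subunit of cytochrome c oxidase, had the highest mean of all genes, with 5314, 3894 and 8817 FPKM in replicates 1, 2 and 3. MT-CO2 followed the same order, with 2629.7, 2027 and 6087 FPKM. All 13 protein coding genes of mitochondrial DNA were highest in replicate 3, beside 40.5% of the 14513 genes at 1 FPKM or more. Their summed level was 21972, 19379 and 45384 FPKM. The mitochondrial ribosomal RNAs did not share this order, since MT-RNR2 was at 3829, 5982 and 3786 FPKM and MT-RNR1 at 804, 1613 and 465 FPKM, both highest in replicate 2.

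Among the other 11 genes, TMSB10, an actin-binding thymosin, was the most abundant nuclear protein coding gene, at 2341 ± 356 FPKM (SD, n = 3). ENO1, the glycolytic enolase, came next with 1682 ± 732 FPKM (SD, n = 3), and its samples were far apart, at 1865, 2305 and 877 FPKM. EEF1A1, the elongation factor that brings transfer RNAs to the ribosome, was at 1553 ± 323 FPKM (SD, n = 3). The glycolytic enzyme GAPDH, the ribosomal protein gene RPS2, the elongation factor EEF2, the actin gene ACTG1 and the chaperone HSP90AB1 had means of 1283, 1235, 1194, 978 and 965 FPKM. MYCN was the only transcription factor in this group of 25 genes.

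Protein coding genes, those of mitochondrial DNA included, held 86.8% of the summed mean FPKM, so non-coding RNAs and pseudogenes made a small part of it. RN7SL2, which encodes the RNA of the signal recognition particle, stood at rank 4 with 4493, 3154 and 2775 FPKM, while its near-identical relative RN7SL3 was at 29.6 FPKM, and reads of such copies cannot be safely told apart. The same holds for RPS28P7, a processed pseudogene listed at 1298 ± 401 FPKM (SD, n = 3), beside 196 ± 48.7 FPKM (SD, n = 3) for its parent RPS28. Among long non-coding RNAs the imprinted gene H19 was at 154 ± 54.5 FPKM (SD, n = 3). The snoRNA host GAS5 had a mean of 112 FPKM, and the host gene SNHG8 82.6 FPKM. MEG3, an imprinted non-coding RNA on chromosome 14, had 145, 101 and 50.5 FPKM. DLK1, a protein coding gene of the same imprinted region that encodes a Notch-like surface protein, had 167, 191 and 43.7 FPKM, so both were lowest in replicate 3. MIR770, listed at 193 FPKM, lies wholly within exons of MEG3 and cannot be told apart from it. MALAT1, abundant in the nuclei of many cells, was at 43.1 ± 4.05 FPKM (SD, n = 3).

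The 6 markers of the neuroblastoma lineage were all measured well above 10 FPKM on average. MYCN (ENSG00000134323, chr2:15940564-15947007, plus strand, in GRCh38) had 959, 849.5 and 1167 FPKM in siNC replicates 1, 2 and 3, a mean of 992 ± 161 FPKM (SD, n = 3) that placed it at rank 22 of all genes. It was highest in replicate 3 and lowest in replicate 2. HAND2 (ENSG00000164107), a basic helix-loop-helix factor of the sympathetic lineage, had 350.0, 346 and 274 FPKM. TH (ENSG00000180176), tyrosine hydroxylase, which performs the rate-limiting step of catecholamine synthesis, had 242, 219.8 and 148 FPKM. The lowest sample was 1.28-fold below the highest for HAND2 and 1.64-fold for TH. GATA3 (ENSG00000107485), a zinc finger factor of the same network, had 102, 132 and 100.3 FPKM, and ISL1 (ENSG00000016082), a LIM homeodomain factor, had 27.0, 29.9 and 25.3 FPKM. The coefficient of variation (CV, the SD as a percent of the mean) was 13.2% for HAND2, 15.8% for GATA3 and 8.46% for ISL1. Replicate 3 was the lowest sample in 5 of the 6 markers, all but MYCN, beside 39.1% of all genes at 1 FPKM or more. DBH (ENSG00000123454), the enzyme that turns dopamine into noradrenaline, had the widest spread of the 6, with 44.2, 30.04 and 3.49 FPKM. Its level in replicate 3 was 12.7-fold below that in replicate 1, on 261 reads against 3641, and its CV was 79.8%.

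In order of level the markers ran MYCN, HAND2, TH, GATA3 and then ISL1 and DBH. From MYCN to GATA3 and from GATA3 to ISL1, the lowest sample of each gene was above the highest sample of the next. ISL1 and DBH overlapped, because DBH was above ISL1 in replicates 1 and 2 and below it in replicate 3. The mean of DBH was 16.8 FPKM without replicate 1 and 37.1 FPKM without replicate 3. In RNA from whole cultures, fewer cells with a transcript and less of it in each cell cannot be told apart.

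**Figure D2:**
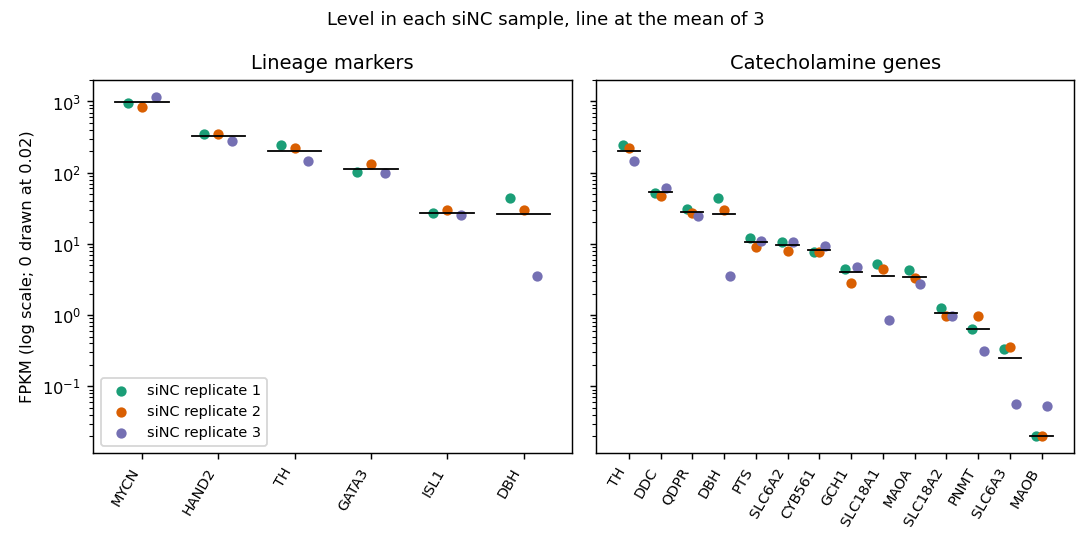
FPKM of the 6 lineage markers (left) and of 14 of the 15 genes of catecholamine synthesis, storage and breakdown (right) in each siNC sample, as points coloured by replicate on a log scale, with a line at the mean of 3 samples and values of 0 drawn at 0.02. Points of most genes lie close together, while DBH, SLC18A1 and SLC6A3 lie far lower in replicate 3, at 3.49, 0.840 and 0.0567 FPKM.

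Of the 20 adrenergic transcription factors listed, 19 reached 1 FPKM on average and 16 reached 10 FPKM, beside 57.0% and 22.9% of protein coding genes. The list's median was 19.2 FPKM, beside 2.00 FPKM over protein coding genes. PHOX2A, a homeodomain factor required for noradrenergic fate, was the highest of them with 393, 442 and 284 FPKM. GATA2 had 100.4, 128 and 66.0 FPKM. TLX2, a homeobox factor of neural crest derivatives, was at 84.1 ± 13.6 FPKM (SD, n = 3), and TBX2 at 53.3 ± 9.39 FPKM (SD, n = 3). Other listed factors from 10 FPKM up included SOX11 (34.1 FPKM), TFAP2B (23.8 FPKM), SIX3 (19.0 FPKM), KLF7 (17.5 FPKM), KLF13 (16.7 FPKM), EYA1 (12.7 FPKM) and PBX3 (11.6 FPKM). DACH1 was the 1 member under 1 FPKM, at 0.711 FPKM.

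The genes that make, store and break down catecholamines were at uneven levels, with a median of 8.22 FPKM. Of 15 members, 12 reached 1 FPKM, beside 57.0% of protein coding genes. After TH, the aromatic amino acid decarboxylase DDC, which makes dopamine, had 52.5, 46.7 and 61.7 FPKM. QDPR and PTS, which supply the tetrahydrobiopterin cofactor of TH, were at 27.6 and 10.8 FPKM, and GCH1, the enzyme at the start of that cofactor pathway, was at 3.98 FPKM. The noradrenaline transporter SLC6A2 had 10.5, 7.86 and 10.7 FPKM. Of the vesicular monoamine transporters, SLC18A1 had 5.29, 4.47 and 0.840 FPKM and SLC18A2 1.27, 0.964 and 0.981 FPKM. SLC18A1 was thus lowest in replicate 3, as DBH was. PNMT, which converts noradrenaline to adrenaline, had a mean of 0.639 FPKM. The dopamine transporter SLC6A3 had 0.329, 0.356 and 0.0567 FPKM in replicates 1, 2 and 3, with a mean of 0.247 FPKM. The oxidase MAOB had a mean of 0.0175 FPKM, while MAOA was at 3.45 FPKM.

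Proteins of the secretory granule, the dense-core vesicle in which neuroendocrine cells store amines and peptides, were abundant. Of 11 members, 9 reached 10 FPKM, beside 22.9% of protein coding genes, and the median was 42.3 FPKM. The granins SCG2, CHGA and CHGB were at 332 ± 25.9 FPKM (SD, n = 3), 87.6 ± 10.2 FPKM (SD, n = 3) and 33.5 ± 5.69 FPKM (SD, n = 3). The peptide precursor VGF had 58.3, 81.2 and 118 FPKM, highest in replicate 3. NPY, another peptide precursor, was at 83.0 FPKM, and carboxypeptidase CPE, which trims prohormones, was at 64.4 FPKM. The prohormone convertases were low by contrast: PCSK1 had 0.475, 0.257 and 0.667 FPKM, and PCSK2 was listed at 0 in every sample, while PCSK1N, which encodes an inhibitor of the PCSK1 convertase, was at 42.3 FPKM.

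Of 9 cholinergic genes 6 reached 1 FPKM, a share near the 57.0% of protein coding genes, and the levels differed widely among members. The nicotinic receptor subunit CHRNA3, typical of sympathetic ganglia, had 24, 21.7 and 18.7 FPKM, and its partner subunits CHRNA5 and CHRNB4, encoded beside it, had means of 4.83 and 4.601 FPKM. SLC18A3, the vesicular acetylcholine transporter, had 19.4, 26.5 and 11.3 FPKM. CHAT, which makes acetylcholine and whose locus contains SLC18A3 within an intron, had 0.293, 0.424 and 0.189 FPKM, a ratio of 62.9 ± 3.13 (SD, n = 3) between the transporter and the enzyme. Acetylcholinesterase ACHE and the choline transporter SLC5A7 also lay under 1 FPKM, at 0.555 and 0.456 FPKM.

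All 31 genes of the neuronal cytoskeleton and of neurite growth reached 1 FPKM and 28 of them reached 10 FPKM. The shares over protein coding genes were 57.0% and 22.9%, and the list's median was 51.0 FPKM. STMN2, a microtubule regulator of growing axons, was the highest with 493, 512 and 362 FPKM. TUBA1A, a neuronal alpha-tubulin, had 339, 285 and 444 FPKM, and UCHL1, a neuronal deubiquitinase known as PGP9.5, had 188, 153 and 265 FPKM. STMN2 was lowest in replicate 3, whereas TUBA1A and UCHL1 were highest there. BASP1, TUBB2B and GAP43 had means of 143, 132 and 108 FPKM, the neurofilament genes NEFM, NEFL and NEFH 95.6, 60.2 and 26.7 FPKM, and the peripheral intermediate filament PRPH 37.9 FPKM. TUBB3, the neuronal beta-tubulin, was listed at only 1.61 FPKM. A share of 35.8% of its exon bases are shared with the overlapping gene AC092143.1, and the part of this overlap in its low value was not tested.

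Synaptic genes were at moderate levels, with a median of 9.16 FPKM. Of 20 members, 18 reached 1 FPKM, beside 57.0% of protein coding genes. The synaptotagmins SYT11 and SYT1, of which SYT1 ties calcium to vesicle release, were at 59.7 and 28.1 FPKM, and the SNARE protein SNAP25 was at 20.1 ± 3.22 FPKM (SD, n = 3). RAB3A, a vesicle GTPase, had 37.0, 32.3 and 13.8 FPKM and the postsynaptic scaffold DLG4 18.9, 22.1 and 8.47 FPKM, both lowest in replicate 3. The glutamate receptor subunit GRIA1 was near 0, with a mean of 0.00421 FPKM, while GRIA2 was at 3.21 FPKM.

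**Figure D3:**
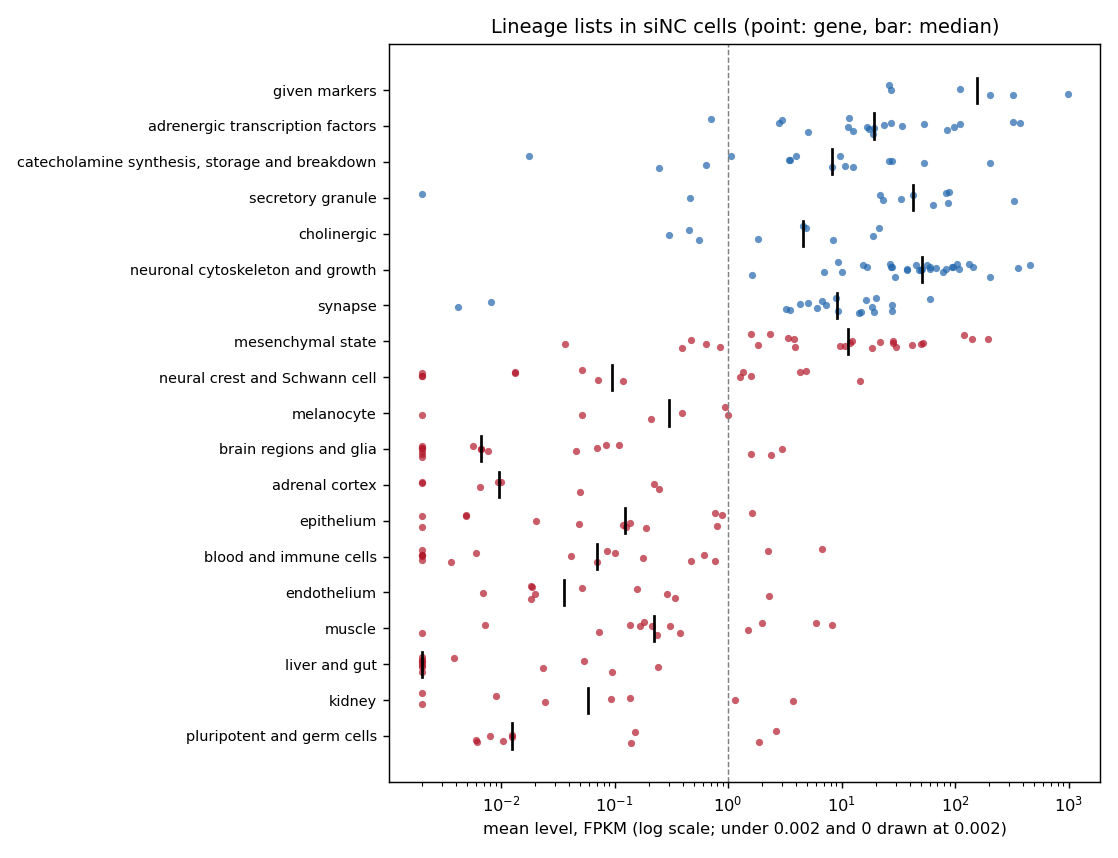
Mean FPKM over the 3 siNC samples (log scale) of each gene in 7 sympathetic and neuronal lists (blue) and 12 lists of other lineages (red), with a black bar at each list's median, a dashed line at 1 FPKM and values under 0.002 drawn at 0.002. In the blue lists 96 of 107 genes lie at 1 FPKM or more, and outside the mesenchymal list 21 of 130 genes of the red lists do.

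Together the 7 sympathetic and neuronal lists held 107 genes, of which 96 reached 1 FPKM, with a median of 19.4 FPKM. Lists of other lineages held 156 genes, of which 42 reached 1 FPKM, beside 57.0% of protein coding genes. Exactly 21 of these 42 belonged to the mesenchymal list. In the remaining 11 lists, 21 of 130 genes reached 1 FPKM, 1 reached 10 FPKM, 29 were listed at 0 in all samples, and the median was 0.0519 FPKM, beside 2.00 FPKM for protein coding genes.

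Genes of the mesenchymal state were present beside the adrenergic genes, with a median of 11.3 FPKM. Of 26 members, 21 reached 1 FPKM and 14 reached 10 FPKM, beside 57.0% and 22.9% of protein coding genes. VIM, the intermediate filament vimentin, was at 197 ± 22.9 FPKM (SD, n = 3). TWIST1, a factor of epithelial-mesenchymal transition, was at 139.6 ± 19.5 FPKM (SD, n = 3), and SPARC, a matrix glycoprotein, had 122, 149 and 85.8 FPKM. The matrix genes LUM and COL1A1 had means of 51.8 and 41.6 FPKM, and the receptor gene PDGFRB had 30.4 FPKM. FN1, which encodes fibronectin, had 53.1, 67.9 and 28.6 FPKM. The transcription factors of the list were at uneven levels. FOSL2, SNAI2, SNAI1, FOSL1 and ZEB1 had means of 28.7, 21.95, 18.5, 12.2 and 12.0 FPKM and ZEB2 3.39 FPKM, while PRRX1 had 0.484, 0.558 and 0.889 FPKM, RUNX1 0.333, 0.634 and 0.205 FPKM and RUNX2 0.739, 1.16 and 0.660 FPKM. The AP-1 genes FOSL1 and FOSL2 were highest in replicate 2 and lowest in replicate 3, with 8.89, 20.6 and 7.23 FPKM and 27.7, 43.5 and 14.8 FPKM. The chains of type I collagen stood far apart. COL1A1 had 46.5, 41.6 and 36.6 FPKM and COL1A2, which encodes the other chain of the same trimer, had 0.0288, 0.0356 and 0.0453 FPKM, on 7, 7 and 10 reads. TWIST1 and its relative TWIST2 likewise stood apart, at 139.6 and 0.468 FPKM.

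Genes of the Schwann cell and early neural crest were measured in part. PMP22, a myelin protein that other cells also make, was at 14.5 ± 2.77 FPKM (SD, n = 3) and was the 1 member that reached 10 FPKM. SOX9, NGFR, SOX2 and S100B had means between 1.28 and 4.84 FPKM. SOX10, FOXD3 and CDH19, which mark migrating crest and Schwann cell precursors, were listed at 0 in all 3 samples. The melanocyte genes, another crest product, had means under 1 FPKM in all 6 cases, and TYR was listed at 0. Means of TYRP1 and MITF lay close to that limit, with 0.858, 0.592 and 1.53 FPKM for TYRP1 and 1.01, 0.726 and 1.09 FPKM for MITF, so 1 gene passed it without replicate 1, 2 without replicate 2 and 0 without replicate 3.

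The adrenal cortex, the neighbour of the medulla, was represented by 0 of 8 members at 1 FPKM. The steroid genes STAR and CYP11A1 had means of 0.247 and 0.224 FPKM, and CYP11B1 and MC2R were listed at 0. Of 17 genes of brain regions and glia, 3 reached 1 FPKM: DLX2 (2.99 FPKM), NEUROD1 (2.40 FPKM) and DLX1 (1.59 FPKM). The forebrain and glutamatergic genes EMX2, OTX2, TBR1 and SLC17A6, the oligodendrocyte gene OLIG1 and the GABA enzyme gene GAD2 were listed at 0.

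In the epithelial list, 1 of 14 genes reached 1 FPKM. It was EPCAM, an adhesion protein, at 1.62 FPKM, while CDH1 had a mean of 0.00495 FPKM and KRT5 and ESRP1 were listed at 0. Without replicate 3 the count was 2, since CLDN4, a tight junction protein, had 0.985, 1.09 and 0.581 FPKM. The endothelial list had EGFL7 alone above 1 FPKM, at 2.31 FPKM, with 0.0197 FPKM for PECAM1. Of 12 liver and gut genes, 0 reached 1 FPKM and 7 were listed at 0, namely TTR, HNF4A, FOXA2, SOX17, CDX2, PDX1 and NKX2-1. In the kidney list, SIX2 (3.75 FPKM) and PAX8 (1.14 FPKM) passed 1 FPKM, and UMOD was listed at 0. Among pluripotent and germ cell genes, SALL4 (2.63 FPKM) and ZP3 (1.88 FPKM) passed 1 FPKM, while NANOG was at 0.00596 FPKM.

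Muscle genes passed 1 FPKM in 4 of 14 cases. These were the smooth muscle genes TAGLN (8.24 FPKM), ACTA2 (5.94 FPKM) and CNN1 (2.01 FPKM) and the myogenic factor MYOD1, which had 2.49, 1.95 and 0.0842 FPKM and so differed between samples. MYH6 was listed at 0. In the blood list 2 of 17 genes passed 1 FPKM, the actin regulator CORO1A (2.27 FPKM) and beta-globin HBB. HBB had 15.4, 2.94 and 1.89 FPKM, and alpha-globin HBA1 had 1.48, 0.340 and 0 FPKM, so both were highest in replicate 1. PTPRC, the common leukocyte antigen, had 0.0657, 0.0882 and 0.103 FPKM, and CD3D, CD3E, MS4A1, IKZF1 and HBG1 were listed at 0. The source of the globin reads was not tested.

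A gene listed at 0 is not shown to be silent. Over the 32 listed members at 0 in all samples, 3 reads in a sample would have given between 0.0156 and 0.183 FPKM, depending on gene length, which covers counting error only. A 0 can also come from the way reads were assigned. EEF1G, a translation elongation factor subunit, was listed at 0 in all samples beside 176 FPKM for its partner subunit EEF1B2, and 99.9% of its exon bases are shared with the overlapping gene AP002990.1. Of all genes with more than 95% of their exon bases shared with other genes, 1969 of 2142 (91.9%) were listed at 0. EEF1G was the only listed member at 0 over that limit, and SOX10, FOXD3 and CDH19 shared 2.40%, 8.58% and 0% of their exon bases.

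MYCN stood far above the other genes of its chromosomal neighbourhood. The list of 12 genes from 2p24 to 2p25 had 9 members at 1 FPKM or more, beside 57.0% of protein coding genes. DDX1, an RNA helicase often co-amplified with MYCN (chr2:15591178-15631111, plus strand), had 71.4, 66.3 and 84.9 FPKM, so that the ratio of MYCN to DDX1 was 13.3 ± 0.474 (SD, n = 3). MYCNOS, the antisense transcript at the start of MYCN, had 66.4, 62.8 and 82.4 FPKM. Both neighbours followed MYCN in being highest in replicate 3 and lowest in replicate 2. The strand setting of the read counts is not given, so part of the MYCNOS level may come from reads of MYCN, which was not tested. NBAS (chr2:15166909-15561330, minus strand), a gene of vesicle transport, was at 9.66 ± 1.10 FPKM (SD, n = 3), and TRIB2, farther along the arm, had 30.5, 30.7 and 48.1 FPKM. FAM49A and FAM84A were under 1 FPKM, with means of 0.537 and 0.452 FPKM, and MYCNUT was listed at 0. MYC, the paralog of MYCN, was low, with 1.65, 3.73 and 0.792 FPKM. The ratio of MYCN to MYC was 581, 228 and 1474 in the 3 samples.

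Other genes linked to neuroblastoma were also measured. In the list of 25 oncogenes, receptors and surface targets, 20 had at least 1 FPKM, beside 57.0% of protein coding genes. The list's median was 6.05 FPKM. The kinase receptor gene ALK had 11.1, 8.89 and 6.53 FPKM, and RET 23.3, 14.7 and 26.8 FPKM, whereas the neurotrophin receptor genes NTRK2 and NTRK3 were at 0.0713 and 0.0685 FPKM. ODC1, a MYCN target that starts polyamine synthesis, had 43.1, 42.9 and 73.5 FPKM. The surface proteins CD276 and GPC2 were at 29.7 and 11.8 FPKM, the drug transporter ABCC1 at 20.3 FPKM and ABCB1 at 0.491 FPKM. TERT, the catalytic subunit of telomerase, had 4.42, 3.04 and 2.49 FPKM, and LIN28B, a repressor of let-7 microRNAs, 5.01, 7.26 and 6.15 FPKM.

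Antigen presentation genes were uneven. B2M, the light chain of class I molecules, had 53.7, 59.7 and 63.8 FPKM, while the heavy chain gene HLA-B had 1.56, 2.14 and 0.713 FPKM. Class I heavy chain genes are near copies of each other with many alleles, so reads of one may be lost or misassigned. The peptide transporter genes TAP1 and TAP2 were at 0.748 and 1.14 FPKM, and the class II regulator CIITA was at 0.0903 FPKM. Of 15 interferon response genes 4 reached 1 FPKM, among them IFI6 (11.5 FPKM), STAT2 (6.95 FPKM) and IRF7 (4.10 FPKM), and the list's median of 0.493 FPKM was below that of protein coding genes. IFIH1, which encodes a sensor of double-stranded RNA, had a mean of 0.00744 FPKM.

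The cells expressed all 18 proliferation genes at 10 FPKM or more, beside 22.9% of protein coding genes, with a median of 35.7 FPKM. TOP2A, the mitotic topoisomerase, was at 126 ± 6.37 FPKM (SD, n = 3) and MKI67, which encodes the Ki-67 antigen, at 37.4 ± 2.79 FPKM (SD, n = 3). CDK1, the kinase that starts mitosis, had 34.1, 35.03 and 35.7 FPKM and the lowest CV of the list, 2.34%. The widest spread was that of 3 genes of DNA replication, RRM2 at 9.85, 7.12 and 19.5 FPKM, PCNA at 70.0, 56.4 and 133 FPKM and MCM6 at 25.9, 20.8 and 41.0 FPKM. MCM3, MCM4 and MCM5 came next and were also highest in replicate 3. Their CVs, among them 32.2% for MCM3 and 25.3% for MCM5, were above the median of 17.3% over all genes at 1 FPKM or more. The remaining genes of DNA synthesis in the list spread less, with CVs of 5.45% for TK1, 6.30% for TYMS, 8.68% for MCM2 and 12.6% for MCM7. In all, 16 of the 18 genes were highest in replicate 3, beside 40.5% of all genes at 1 FPKM or more, and the list's median CV was 8.23%.

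PRPF19 (ENSG00000110107, chr11:60890730-60906588, minus strand), which encodes the splicing factor Prp19 that the study is about, had 53.1, 53.1 and 64.9 FPKM and ranked 619. YAP1 (ENSG00000137693, chr11:102110461-102233423, plus strand), the transcriptional co-activator of the Hippo pathway, had 1.20, 1.95 and 1.61 FPKM, on 165, 216 and 201 reads, and ranked 12508. Its paralog WWTR1, which encodes TAZ, had 1.82, 1.84 and 1.86 FPKM.

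Glycolysis genes, which break glucose down to pyruvate and lactate, were abundant and uneven between samples. All 19 members had at least 1 FPKM, beside 57.0% of protein coding genes, with a median of 149.5 FPKM. In 16 of 19 the level was highest in replicate 2 and lowest in replicate 3, beside 27.5% of genes at 1 FPKM or more. On the log2 scale with 0.1 added, the list's median difference from the mean of the 3 samples was 0.09, 0.46 and −0.94 in replicates 1, 2 and 3. The glucose transporters SLC2A1 and SLC2A3 had 144, 286 and 18.8 FPKM and 50.04, 99.5 and 5.38 FPKM. Hexokinase HK2, which traps glucose in the cell, had 153, 218 and 30.2 FPKM, and aldolase ALDOC 91.0, 113 and 21.5 FPKM. GAPDH had 1348, 1731 and 772 FPKM and PGK1, the next enzyme of the pathway, 359, 460.2 and 149.9 FPKM. The 3 exceptions were PFKM, LDHA and LDHB, with CVs of 7.004%, 13.8% and 4.14%. The list's median CV was 44.0% over the 3 samples and 17.4% over replicates 1 and 2 alone, beside 17.3% and 11.3% over all genes at 1 FPKM or more.

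The lactate dehydrogenase genes thus stood out in level and in spread. LDHB, the subunit typical of heart, had 314, 303 and 329 FPKM, and LDHA, the subunit typical of muscle and of many tumours, had 6.71, 5.58 and 7.37 FPKM. The ratio of LDHB to LDHA was 48.6 ± 5.09 (SD, n = 3). None of the exon bases of LDHA are shared with another gene, and 6 of its processed pseudogenes had 0.0919, 0.228 and 0.760 FPKM in sum in replicates 1, 2 and 3, less than the level of LDHA in each sample. Reads that match both LDHA and such a copy can be lost from both, so these values do not show that LDHA kept its reads. The part of such losses in its low level was not tested.

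**Figure D4:**
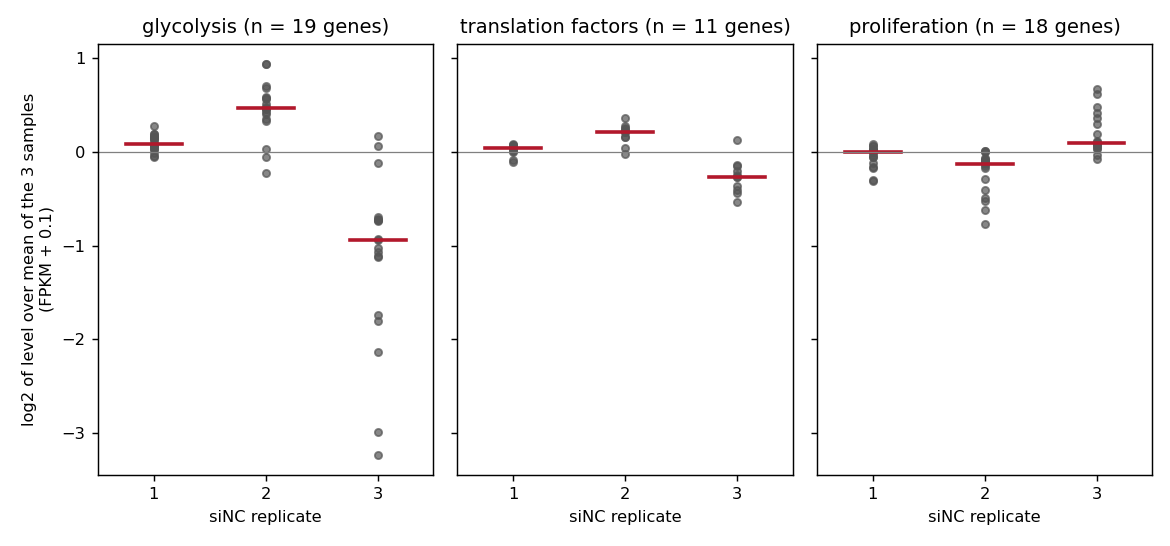
Level of each gene in each siNC sample over its mean of the 3 samples, as a log2 ratio of FPKM + 0.1, for genes at 1 FPKM or more in the lists of glycolysis, translation factors and proliferation, with a red bar at the median. The glycolysis points spread downwards in replicate 3 with a median of −0.94, while proliferation points lie mostly above 0 there.

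Because most glycolysis genes moved together between samples while LDHA and LDHB did not, the sequences around their starts are shown for a pair of moving genes and for both lactate dehydrogenases, chosen after the values were seen. The windows run from 250 bases before to 50 bases after the start of the transcript in RefSeq on GRCh38.p14 and are read 5′ to 3′ on the strand of the gene. Capitals mark ACGTG on either strand, the letters at the core of sites that hypoxia-inducible factors are known to bind, which within CACGTG are also the E-box known for MYC family proteins and count there on both strands. For HK2 and LDHA, which have 2 windows each, the window with more matches is shown. That of HK2 is at chr2:74834920-74835219, plus strand. The window of ALDOC is at chr17:28576846-28577145, minus strand. That of LDHA is at chr11:18394313-18394612, plus strand, and the window of LDHB is at chr12:21657793-21658092, minus strand.
HK2: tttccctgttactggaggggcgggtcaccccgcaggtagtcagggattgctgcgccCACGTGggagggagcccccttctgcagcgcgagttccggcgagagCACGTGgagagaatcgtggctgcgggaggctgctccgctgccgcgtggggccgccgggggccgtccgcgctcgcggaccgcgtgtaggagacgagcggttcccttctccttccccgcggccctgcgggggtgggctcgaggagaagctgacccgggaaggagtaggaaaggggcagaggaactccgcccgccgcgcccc
ALDOC: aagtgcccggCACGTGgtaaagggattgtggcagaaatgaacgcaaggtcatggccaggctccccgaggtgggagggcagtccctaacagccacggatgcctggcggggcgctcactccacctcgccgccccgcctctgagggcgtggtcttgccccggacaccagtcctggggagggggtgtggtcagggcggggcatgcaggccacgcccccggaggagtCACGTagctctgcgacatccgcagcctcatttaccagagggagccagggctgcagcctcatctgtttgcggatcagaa
LDHA: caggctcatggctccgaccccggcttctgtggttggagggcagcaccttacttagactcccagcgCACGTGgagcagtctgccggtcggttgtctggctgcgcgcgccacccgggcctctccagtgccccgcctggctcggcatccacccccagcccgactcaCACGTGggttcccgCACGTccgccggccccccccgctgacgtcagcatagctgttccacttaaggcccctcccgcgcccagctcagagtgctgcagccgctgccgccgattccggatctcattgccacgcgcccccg
LDHB: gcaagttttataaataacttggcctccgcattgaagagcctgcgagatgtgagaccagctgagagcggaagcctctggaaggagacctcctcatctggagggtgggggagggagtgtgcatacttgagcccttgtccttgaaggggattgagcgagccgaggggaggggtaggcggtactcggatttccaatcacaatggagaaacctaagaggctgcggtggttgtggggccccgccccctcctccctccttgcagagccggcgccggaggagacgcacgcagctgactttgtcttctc

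The HK2 window holds 4 matches, that of ALDOC 3, that of LDHA 5 and that of LDHB 0. For HK2 and LDHA the window with more matches out of 2 was counted, and ALDOC and LDHB had 1 window each. Match counts of these picked genes are therefore not compared with how their levels moved. Of the windows of glycolysis genes, 15 of 38 (39.5%) hold ACGTG, beside 7518 of 35116 windows of all genes (21.4%). Counted by gene, 11 of the 18 glycolysis genes matched hold it in a window, beside 6790 of 27305 genes. The 18 genes have 38 windows and the 27305 genes 35116, so glycolysis genes have more windows each. More windows give a gene more chances to hold a match, so these counts by gene cannot be compared directly. Windows of the same gene are not independent of each other. CACGTG occurs in 5 of 38 (13.2%), beside 7.26% of all windows. A match describes letters and does not show that a factor was bound.

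Of 15 genes commonly used as references, 5 were highest in replicate 2 and lowest in replicate 3, near the 27.5% of all genes at 1 FPKM or more, and 7 were highest in replicate 3. Their median CV was 19.2%. The widest spread was that of PGK1 and GAPDH, which are also members of the glycolysis list, with CVs of 49.0% and 37.6%. ACTB, beta-actin, had 402, 415 and 614 FPKM and was highest in replicate 3, opposite to ACTG1, the cytoplasmic gamma-actin, with 978, 1233 and 724 FPKM. The lowest CVs were those of GUSB, PPIA and TBP, at 3.83%, 3.84% and 4.13%. The library totals behind the FPKM values were 99.4%, 92.4% and 103% of the reads on genes in replicates 1, 2 and 3. This enters CVs as small as these, which were not recomputed, so they do not rank how steady the references are. Translation factors followed the order of glycolysis at a smaller size. Of the 11 members at 1 FPKM or more, 10 were lowest in replicate 3, beside 39.1% of all genes at that level, and 9 of these were also highest in replicate 2. Their median CV was 16.7%. Cytosolic ribosomal protein genes summed to 27455, 30868 and 20669 FPKM over 88 genes, of which 5 were highest in replicate 3. The share of mitochondrial DNA genes was highest in the sample with the lowest glycolysis, translation factor and ribosomal protein levels, and the part of this share in those values was not tested.

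Over all 14513 genes at 1 FPKM or more, the median CV between the 3 samples was 17.3%, with quartiles of 10.2% and 28.2%. Counting of reads alone would give a median CV of 4.36%. By level, the median CV was 24.4% from 1 to 3 FPKM, 16.2% from 3 to 10 FPKM, 13.9% from 10 to 30 FPKM and 13.1% from 30 to 100 FPKM. It was larger again, at 20.2%, in the 308 genes from 100 FPKM up, whose counting CV was 0.991%. Between replicates 1 and 2, 688 genes (4.74%) differed by more than 2-fold, between replicates 1 and 3, 1155 genes (7.96%) did, and between replicates 2 and 3, 1820 genes (12.5%) did.

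**Figure D5:**
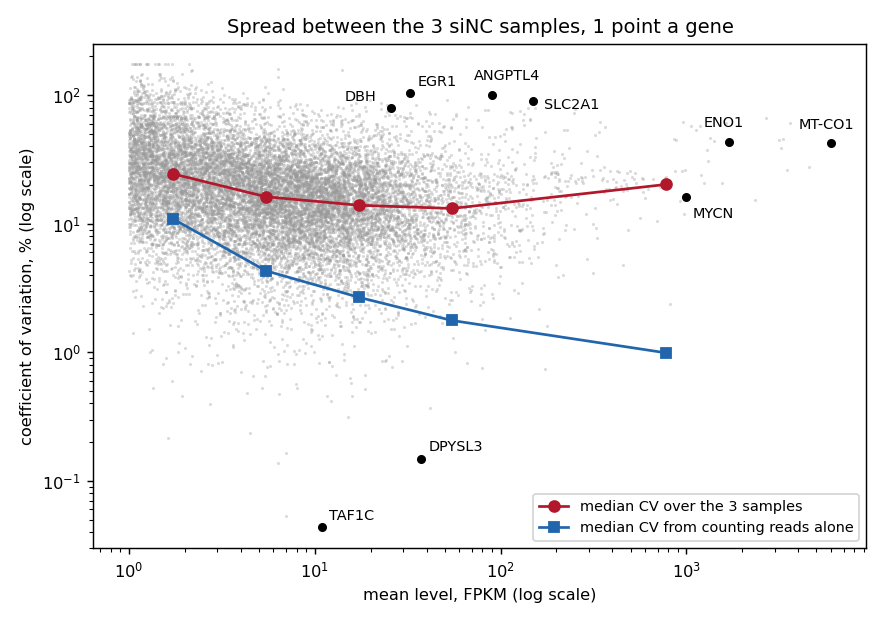
Coefficient of variation over the 3 siNC samples (vertical axis, log scale) against mean FPKM (horizontal axis, log scale), 1 grey point per gene, with medians by level in red and the median CV that counting of reads would give in blue. The red line runs from 24.4% to 13.1% and back to 20.2%, and the blue line from 10.9% to 0.991%.

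Of the 4810 genes at 10 FPKM or more, 168 (3.49%) had a CV over 50%. Replicate 3 was the lowest sample in 126 of these and replicate 2 the highest in 119, beside 43.5% and 48.3% of all genes at 10 FPKM or more. The number with a CV over 50% was 33 without replicate 3 and 305 without replicate 1. The 10 most variable included EGR1, an immediate early transcription factor, with 12.8, 71.8 and 13.6 FPKM, high in replicate 2 alone. ANGPTL4, a secreted inhibitor of lipoprotein lipase, had 76.7, 186 and 6.803 FPKM. NDRG1, a stress-responsive gene known to respond to low oxygen, had 195, 363 and 23.2 FPKM, and BHLHE40, a transcriptional repressor of the circadian clock, had 26.1, 40.9 and 1.59 FPKM. These 3 genes shared the order of SLC2A1 and SLC2A3, which were also among the 10. SDF2L1, a protein of the endoplasmic reticulum, ran the other way, with 9.39, 7.39 and 33.5 FPKM. The remaining 3 were short non-coding genes, the mitochondrial transfer RNA gene MT-TV with 9.97, 41.1 and 8.79 FPKM and RF01973 and RF01972 on a scaffold outside the assembled chromosomes, with 2.66, 39.5 and 0 FPKM and 14.9, 35.2 and 1.42 FPKM.

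The 10 genes with the least spread at 10 FPKM or more had CVs between 0.0434% and 0.627%. They were TAF1C, a factor of RNA polymerase I, with 11.0, 11.0 and 11.0 FPKM, DPYSL3, a neuronal cytoskeleton protein of the collapsin response family, with 37.4, 37.3 and 37.4 FPKM, the deubiquitinase gene BAP1, the arginine methyltransferase gene PRMT1, the condensin gene SMC2, EIF2B5, PAPOLA, SUDS3, C5orf30 and C12orf10. Their CVs are below the 2.39% that counting of reads gives as the median at this level, so values this small do not rank how steady these genes are.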

How the data were processed

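RNA of SK-N-BE(2) cells from 3 siNC samples was analysed, grouped by the treatment label. The authors deposited 1 FPKM value for each of 58302 Ensembl genes and sample. The submitters' processing notes name HISAT2 2.0.5, featureCounts 1.5.0-p3 and the genome build hg38. The annotation release, the strand setting and the library total behind the FPKM values are not given in the sources used here. The deposited FPKM values times the union exon length of GENCODE release 29 were whole multiples of 1 step per sample (tolerance 0.02 reads, or 0.0001 of the reads where larger) and were turned into reads. The step corresponds to 99.4%, 92.4% and 103% of the reads on genes in replicates 1, 2 and 3, so the authors' library totals were not these sums. A total that is not the sum of reads shifts all genes of a sample alike. Compared with scaling to reads on genes, the authors' totals set levels of replicate 2 higher and those of replicate 3 lower. This enters the CVs, small ones most, and the order of samples, which were not recomputed with these sums.

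Means, SDs and CVs over 3 samples were computed with pandas 2.3.3 and numpy 2.4.6 in Python 3.11.15 and plotted with matplotlib 3.10.9, as a description with no test. Levels of at least 1 FPKM were counted, and 0.1 was added before logs. The recovery of reads and CVs was tested on simulated data. Exon bases shared with other genes were counted on either strand. Gene coordinates are from GENCODE release 29 on GRCh38. Promoter windows were taken from RefSeq and matched by symbol.

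The rule named the 6 markers, the 25 genes with the highest mean, the 5 highest of each non-coding type, up to 6 highest members of each list and those listed at 0, the 10 highest and 10 lowest CVs at 10 FPKM or more, PRPF19 and YAP1. From non-coding types, only a selection is given. The samples, the 28 gene lists and the markers were chosen with earlier results of these data known. Alternatives were other minimum levels, the median, TPM, another pseudocount, reads not divided by length and each replicate left out. Leaving out replicates for glycolysis and for genes with a CV over 50% was added after seeing the data. Some named members of the lists, and 1 whole list, are not reported here. Samples with Prp19 knockdown were not used here.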

Additional observations from a re-analysis of the deposited data

How the results depend on the processing

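Of 63 recomputed main values, 50 moved by less than a spread or, for counts, by no more than 1.5 times, and of 146 other values 125 did. The spread was the SD between samples for levels and shares. For the median CVs and the median SD of log2 levels it was the SD of the values with replicates left out. Those values are thus judged in part against themselves. With a minimum of 5 FPKM, 7920 genes in all and 19 members of the other lineage lists remained, and the cholinergic list had 3. Counted as reads not divided by length, the 100 most abundant genes held 18.7%. The median CV was 38.4% with no minimum level and 11.3% to 19.1% with replicates left out in turn, lowest without replicate 3. The median SD of log2 levels, 0.24 over all samples, was 0.35 with no minimum and 0.16 to 0.27 with replicates left out. TPM, which multiplies FPKM by 3.54 to 3.77 here, gave 3619 for MYCN, 1180.2 for HAND2, 405 for GATA3, 99.8 for ISL1, 95.2 for DBH and 743 for TH, in the same order. With replicates left out, the glycolysis list had median CVs of 17.4% to 64.1%, and 33 to 305 genes at 10 FPKM or more had a CV over 50%. No paired analysis was possible because the values come from no test and a single group was described. With 3 samples of 1 line, a CV is itself imprecise, and counting of reads alone gives a median CV of 10.9% from 1 to 3 FPKM.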
